A study of Mus musculus with 3 samples.

Results

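A set of 6 chemokine receptor genes of cardiac myeloid cells, Ccr2, Ccr1, Cxcr3, Cxcr4, Ccr7 and Xcr1, were followed through 3 libraries of single cells from mouse hearts. They were chosen by name, and all 6 have a row in each library among the 27998 mouse genes that the libraries share. The day 11 library holds macrophages of Cx3cr1CreER-YFP/+:R26Td/+ mice at day 11 after myocardial infarction. The mixed library holds macrophages and dendritic cells (DCs) of wild-type mice at steady state, and the steady-state macrophage library holds macrophages of Cx3cr1CreER-YFP/+:R26Td/+ mice at steady state. All mice were C57BL/6 and 8 to 12 weeks old. In the reporter genotype the inducible Cre is driven by the Cx3cr1 locus and R26Td carries the TdTomato reporter; both libraries of this genotype carry the same alleles, so infarction is the labelled difference between them. The wild-type library differs from the other libraries in genotype and in the sort at the same time, and these cannot be told apart. The sort took macrophages by CD64 and CD11b and DCs by CD11c and MHC class II without CD64, among live CD45+ cells, after a digestion with the transcription inhibitor flavopiridol. Each group is 1 library, the number of hearts in each is not given in the labels, and cells of 1 library are not replicates. No comparison between libraries therefore has a test, and every interval below is a 95% interval for counting error only.

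Chemokine receptors are membrane receptors coupled to inhibitory G proteins, and they steer leukocytes along gradients of chemokines. In the heart Ccr2 separates macrophages that descend from blood monocytes, which carry it, from long-lived resident macrophages, which have little, and Timd4 marks the resident cells. Ccr7 takes mature DCs to lymph nodes, Xcr1 marks cross-presenting conventional type 1 DCs (cDC1s), Cxcr3 reads the interferon-induced chemokines Cxcl9 and Cxcl10, Cxcr4 reads Cxcl12, and Ccr1 reads Ccl3, Ccl5, Ccl6 and Ccl9.

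The genes lie on mm10 as follows in the GENCODE annotation. Ccr2 (ENSMUSG00000049103) spans chr9:124101950-124113557 on the plus strand. Ccr1 (ENSMUSG00000025804) spans chr9:123962124-123968692 and Xcr1 (ENSMUSG00000060509) chr9:123852315-123862029, both on the minus strand of the same chromosome. Cxcr3 (ENSMUSG00000050232) spans chrX:101731535-101734269, Cxcr4 (ENSMUSG00000045382) chr1:128588199-128592293 and Ccr7 (ENSMUSG00000037944) chr11:99144196-99155077, all on the minus strand. None of the 6 overlaps another annotated gene. The promoters of Cxcr4 and Ccr1 are shown because the genes differ in the comparison of day 11 with steady state, where Cxcr4 was higher and Ccr1 was near equal. Each line is the 250 bases before the RefSeq start on GRCm38.p6, minus strand, 5′ to 3′, at chr1:128592300-128592549 for Cxcr4 and chr9:123968693-123968942 for Ccr1, with motif matches in capitals.
Cxcr4: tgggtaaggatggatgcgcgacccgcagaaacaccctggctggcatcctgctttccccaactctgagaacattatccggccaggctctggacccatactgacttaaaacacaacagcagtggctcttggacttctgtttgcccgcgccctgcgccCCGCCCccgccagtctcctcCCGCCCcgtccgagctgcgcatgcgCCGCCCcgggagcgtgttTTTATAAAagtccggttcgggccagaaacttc
Ccr1: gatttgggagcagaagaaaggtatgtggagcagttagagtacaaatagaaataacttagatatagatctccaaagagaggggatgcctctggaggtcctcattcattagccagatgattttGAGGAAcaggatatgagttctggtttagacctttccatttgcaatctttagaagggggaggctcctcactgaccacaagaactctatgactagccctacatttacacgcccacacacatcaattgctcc
The motifs searched, on both strands, were the PU.1 core GAGGAA, AP-1 TGANTCA, the hypoxia response core ACGTG, the interferon response element, the SP1 box GGGCGG and the TATA box TATAAA. The Cxcr4 window held 3 SP1 boxes, which begin 95, 75 and 50 bases before the start, and TATA matches on both strands that overlap each other. The Ccr1 window held 1 PU.1 core. Among 32851 RefSeq promoter windows of the same length, 32.7% hold the SP1 box, 12.4% the TATA box and 23.3% the PU.1 core, so each match is a common one and stands only as a description.

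After filters the libraries held 4497 cells at day 11, 1742 cells in the mixed library and 1741 cells in the steady-state macrophage library, with medians of 8146, 7188.5 and 10760 unique molecular identifiers (UMIs, each counting 1 captured RNA molecule) per cell in that order. Levels are UMIs of a gene per 1000000 UMIs of all genes in the same cells (CPM). To compare shares of cells, each cell was thinned to 3000 UMIs, which left out 84 cells of the day 11 library, 172 of the mixed library and 0 of the steady-state macrophage library. Pairs of libraries shared 7 to 11 cell barcodes. A gene was called higher or lower at a fold of at least 2, among genes with at least 5 CPM in either population.

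Cxcr3 and Cxcr4 stood out at day 11, Ccr2 was moderately higher, and Ccr1 was near equal to the steady-state macrophage library. Cxcr4, which binds Cxcl12, had 71.4 CPM at day 11, 6.54 CPM in the mixed library and 19.9 CPM in the steady-state macrophage library. The day 11 level was 3.58 times that of steady-state macrophages (3.25 to 3.96). Cxcr3 had 18.2 CPM at day 11, 30.3 CPM in the mixed library and 3.59 CPM in the steady-state macrophage library, a ratio of 5.09 (4.05 to 6.47) between day 11 and steady-state macrophages. These were the members past 2-fold among the 4 with at least 5 CPM in that comparison, and both were higher. Of all 9156 genes at that level, 2.33% were at least 2-fold higher and 3.34% at least 2-fold lower at day 11.

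Ccr2, the receptor for Ccl2, Ccl7 and Ccl12, had 256 CPM at day 11, 337 CPM in the mixed library and 175 CPM in the steady-state macrophage library. Its ratio of day 11 over steady-state macrophages was 1.46 (1.41 to 1.52), short of 2-fold. Ccr1 had 57.2 CPM at day 11, 24.1 CPM with DCs and 59.5 CPM in steady-state macrophages, and the interval of its ratio of day 11 over steady-state macrophages, 0.961 (0.899 to 1.03), includes 1. The day 11 level of Ccr2 lay between the levels of the steady-state libraries, while that of Cxcr4 lay above both.

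Ccr7 and Xcr1 belonged to the library that was sorted for DCs. Xcr1 had 962 UMIs (68.4 CPM) in the mixed library, 10 UMIs (0.237 CPM) at day 11 and 4 UMIs (0.175 CPM) in steady-state macrophages. Ccr7 had 135 UMIs (9.59 CPM) in the mixed library, 20 UMIs (0.473 CPM) at day 11 and 23 UMIs (1.01 CPM) in steady-state macrophages. Day 11 and steady-state macrophages were both under 5 CPM for these receptors, so no fold was called between them.

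**Figure D1:**
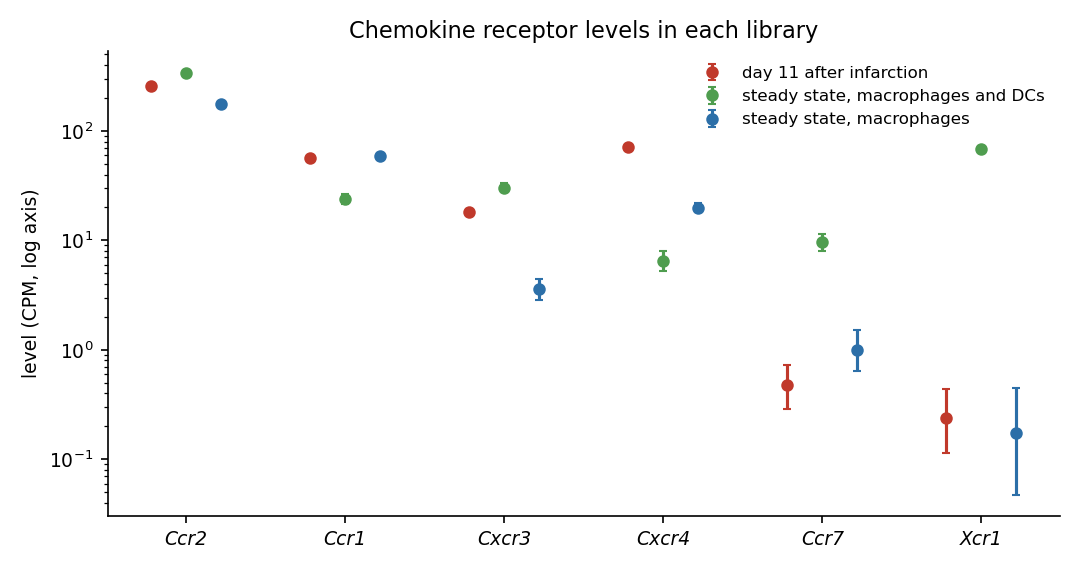
Level of each receptor in CPM (log axis) in the day 11, mixed, and steady-state macrophage libraries; points are sums over all kept cells and bars are 95% Poisson intervals. Cxcr4 at day 11 (71.4 CPM) lies above both steady-state libraries, and Xcr1 and Ccr7 lie near or below 1 CPM in the libraries sorted for macrophages alone.

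Against the mixed library, the ratio of day 11 was 10.9 for Cxcr4, 2.37 for Ccr1, 0.759 for Ccr2 and 0.601 for Cxcr3. In that comparison 15.7% of 9009 genes were at least 2-fold higher at day 11 and 4.88% at least 2-fold lower. These ratios shifted when other cell types were left out. With DC-gated, lymphoid-gated and stromal-gated cells left out of both libraries, Cxcr3 had 18.7 CPM at day 11 and 9.76 CPM in the mixed library, a ratio of 1.92 (1.43 to 2.63) that points the other way. Without those cells Ccr1 was short of 2-fold at 1.51 (1.30 to 1.76), and Cxcr4 was 6.50 times as high at day 11 (4.99 to 8.63), where 7.44% of genes were at least 2-fold higher.

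The share of cells with a receptor UMI was also counted. After thinning, Cxcr4 was detected in 18.2% of day 11 cells (17.1% to 19.4%), 2.36% of mixed library cells (1.67% to 3.23%) and 5.80% of steady-state macrophages (4.75% to 7.005%). The shares with Ccr2 were 36.3%, 47.0% and 26.3%, with Ccr1 12.6%, 7.13% and 16.03%, and with Cxcr3 5.37%, 7.01% and 0.862%, each for day 11, the mixed library and steady-state macrophages. The Ccr1 share was lower at day 11 (11.6% to 13.6%) than in steady-state macrophages (14.3% to 17.8%), although the ratio of its levels was near 1, and at full depth the shares were 26.0% and 40.7%. The Cxcr3 share of steady-state macrophages rests on 15 cells. At full depth the shares were larger, 37.8% for Cxcr4 at day 11, 4.88% with DCs and 20.2% in steady-state macrophages. As a background for the shares of the mixed library alone, Cxcr4 was found in 0 of its 334 thinned Xcr1-positive cells. This allows a share of up to 0.898% (3 cells of 334). Ccr1 was found in 1.50% of these cells, at a full median depth of 12132.5 UMIs against 7188.5 UMIs in that whole library. These values set no background for the other libraries. Cells gated as stromal, which should lack Ccr2, numbered 8 at day 11 and 5 in the steady-state macrophage library; none held a Ccr2 UMI, and so few cells set no useful limit.

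Gates were then drawn on 1 UMI of a marker. Timd4 marked 334 cells at day 11, 254 in the mixed library and 959 in the steady-state macrophage library. Gpnmb, a lysosomal glycoprotein of lipid-handling macrophages, marked 1341, 5 and 80 cells in the same order, and Ly6c2, a surface protein of classical monocytes, marked 234, 52 and 155 cells. The 5 Gpnmb-positive cells of the mixed library are too few to use. Reads of Ly6c2 may be shared with its near-identical neighbour Ly6c1, so that gate is uncertain. DC-gated cells, positive for Xcr1 or for the C-type lectin Cd209a, numbered 317 at day 11, 924 in the mixed library and 137 in the steady-state macrophage library. Gates overlapped, most in the steady-state macrophage library, where 66.2% of Gpnmb-positive and 60.6% of Ly6c2-positive cells were also Timd4-positive.

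The DC gate held different cells in different libraries. DC-gated cells had 4606 CPM of the macrophage gene C1qa at day 11, 650 CPM in the mixed library and 6236 CPM in the steady-state macrophage library. Flt3, the growth factor receptor of DCs, had 36.5, 75.2 and 6.18 CPM in the same order. The summed level of all 7 macrophage markers was 11745 CPM in DC-gated cells at day 11, 1912 CPM with DCs and 14701 CPM in steady-state macrophages, with 0 markers absent in each. Xcr1-positive cells numbered 9 at day 11 and 4 in the steady-state macrophage library, and in both Clec9a and Flt3 were at 0. The summed macrophage markers of the DC gate were 0.725 times those of all cells at day 11, 0.410 times in the mixed library and 0.884 times in steady-state macrophages. The summed DC markers fixed for either kind of DC, none of which drew the gate, were 3.17 times those of all cells at day 11, 1.23 times in the mixed library and 2.51 times in steady-state macrophages, at 136, 240 and 54.1 CPM. DC-gated cells of day 11 and of the steady-state macrophage library thus had a higher sum of these DC markers than their whole library. Their macrophage markers stayed above the level of DC-gated cells of the mixed library. The summed cDC1 list, which holds Xcr1, was 1.02 times all cells at day 11 and 1.03 times in steady-state macrophages. The summed list of conventional type 2 DCs (cDC2s), which holds Cd209a, was 2.48 and 1.28 times all cells in that order. Of the DC-gated steady-state macrophages 62.8% were also Timd4-positive.

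The Timd4 gate also differed. Of its 254 cells in the mixed library, 125 (49.2%) were DC-gated, and the gate had 125 CPM of Xcr1, 85.6 CPM of Clec9a and 78.7 CPM of Flt3. With the DC-gated cells left out, a choice made after these values were seen, 129 cells remained with 6635 CPM of C1qa and 517 CPM of Lyve1. These cells lack Xcr1 by the rule of the DC gate, so that absence is not a result. The Timd4 gates of day 11 and steady-state macrophages had 0.249 and 0.134 CPM of Xcr1.

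Ccr2 was low in Timd4-positive cells and high in Ly6c2-positive cells. In the Timd4 gate it had 147 CPM at day 11, 159 CPM in the mixed library and 136 CPM in steady-state macrophages. The level over the other cells of the same library was 0.549 at day 11 (0.504 to 0.596), 0.430 in the mixed library (0.384 to 0.480) and 0.546 in steady-state macrophages (0.513 to 0.582). Without DC-gated cells, Timd4-positive cells of the mixed library had 68.2 CPM of Ccr2, 0.193 times the other cells (0.146 to 0.251), where 6.84% of genes were at least 2-fold lower. Those cells had 46.3 CPM of Ccr1 against 22.7 CPM (2.04, 1.41 to 2.86) and 15.8 CPM of Cxcr4 against 5.96 CPM (2.66, 1.36 to 4.81), where 13.8% were at least 2-fold higher. The whole Timd4 gate of that library had 56.5 CPM of Cxcr3 and 16.7 CPM of Ccr7, 2.21 and 2.01 times the other cells. In that comparison 4.46% of genes were at least 2-fold higher. Without its DC-gated cells the gate had 15.8 CPM of Cxcr3 and 2.44 CPM of Ccr7. All Ccr7-positive cells of the mixed library together held 2 Timd4 UMIs, so the Ccr7 of this gate rests on at most 2 cells. Genes at least 2-fold lower in the Timd4 gate made up 1.46% of those tested at day 11, 3.15% with DCs and 1.11% in steady-state macrophages.

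In the Ly6c2 gate Ccr2 had 499 CPM at day 11, 440 CPM with DCs and 241 CPM in steady-state macrophages. Of the 52 Ly6c2-positive cells of the mixed library 28 (53.8%) were DC-gated, and Ccr2 had 665 CPM in the 24 cells of exactly 1 gate and 700.4 CPM in the 21 cells with at least 2 Ly6c2 UMIs. At day 11 the level of the gate was 2.09 times the other cells (1.98 to 2.21), where 2.26% of genes were at least 2-fold higher, and in steady-state macrophages it was 1.45 times the other cells (1.33 to 1.58). The Ly6c2 gate had 1352 CPM of Plac8, a gene of classical monocytes, at day 11, 879 CPM with DCs and 686 CPM in steady-state macrophages. Ordered by Ccr2, day 11 populations ran from Gpnmb-positive cells (136 CPM) and Timd4-positive cells (147 CPM), whose intervals overlap, through cells in none of the gates (301 CPM) and DC-gated cells (405 CPM) to Ly6c2-positive cells (499 CPM). Among steady-state macrophages, Timd4-positive (136 CPM) and Gpnmb-positive cells (143 CPM) did not differ beyond their intervals, nor did DC-gated cells (224 CPM), cells in none of the gates (237 CPM) and Ly6c2-positive cells (241 CPM) beyond theirs.

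**Figure D2:**
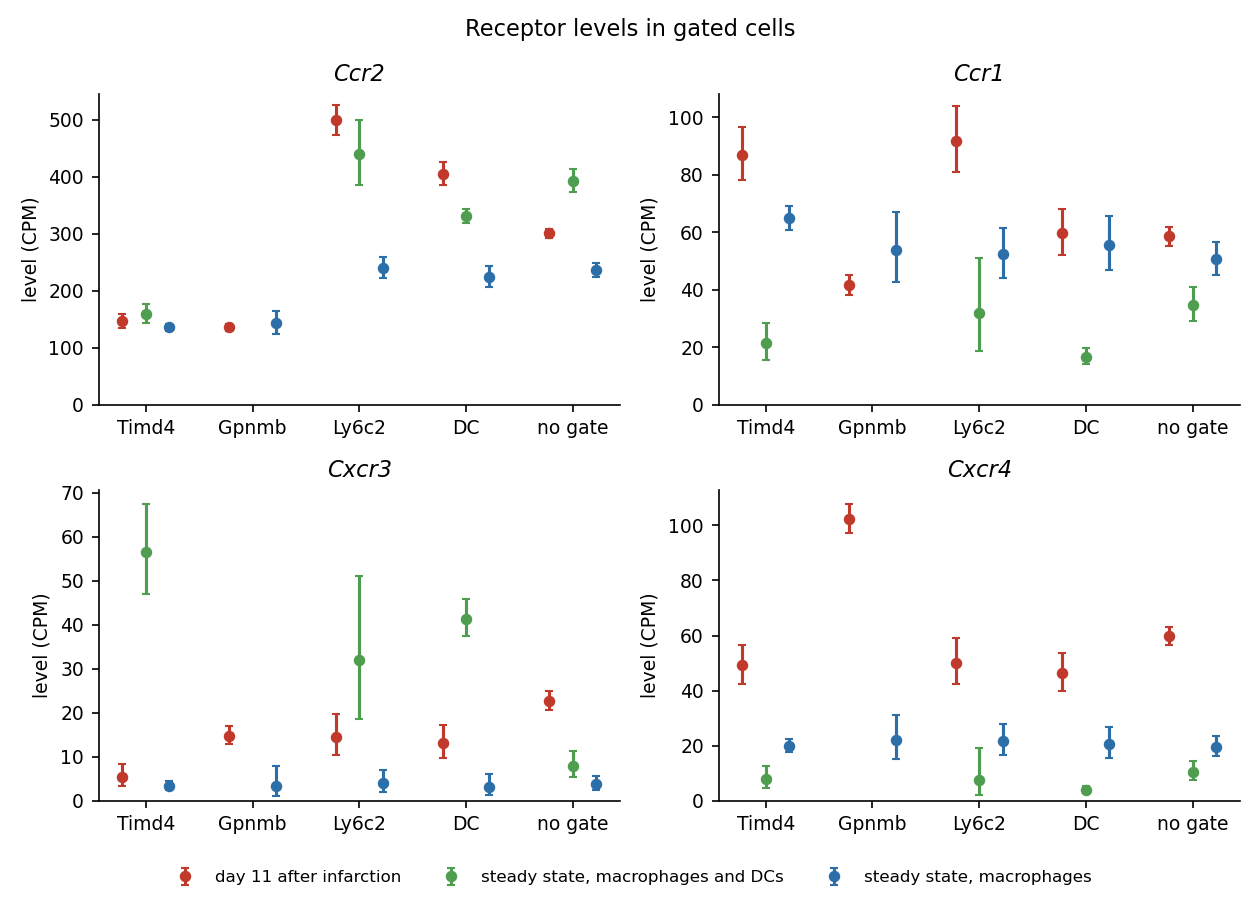
Level in CPM of Ccr2, Ccr1, Cxcr3 and Cxcr4 in cells gated on Timd4, Gpnmb, Ly6c2 or DC markers and in cells of none of the gates, for the day 11, mixed, and steady-state macrophage libraries; bars are 95% Poisson intervals and populations under 20 cells are left out. Cxcr4 at day 11 is highest in the Gpnmb gate (102 CPM), and Ccr2 at day 11 is highest in the Ly6c2 gate (499 CPM).

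Cxcr4 showed a different order. At day 11 it had 102 CPM in Gpnmb-positive cells against 54.8 CPM in the other cells, a ratio of 1.87 (1.74 to 2.01), just short of 2-fold, in a comparison where 0.632% of genes were at least 2-fold higher. Ccr2, at 136 CPM in Gpnmb-positive cells against 320 CPM in the other cells, was past 2-fold, where 0.971% of genes were at least 2-fold lower. The other day 11 populations had 46.3 CPM (DC gate), 49.1 CPM (Timd4 gate), 50.2 CPM (Ly6c2 gate) and 59.8 CPM (none of the gates), and the first 3 of these overlap in their intervals, as do the Ly6c2 gate and none of the gates. Steady-state macrophages had no such order, since every population had between 19.5 CPM (none of the gates) and 22.2 CPM (Gpnmb gate) with overlapping intervals. Cxcr4 in the mixed library was lowest in Xcr1-positive cells, 1.20 CPM against 8.79 CPM in the other cells.

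Ccr1 was highest at day 11 in Ly6c2-positive (91.9 CPM) and Timd4-positive cells (87.0 CPM), which overlap in their intervals, and lowest in Gpnmb-positive cells (41.5 CPM). The Timd4 gate was 1.61 times the other cells at day 11 (1.43 to 1.80) and 1.32 times among steady-state macrophages (1.17 to 1.48). Both Ccr1 and Ccr2 were thus high in Ly6c2-positive cells at day 11, while in Timd4-positive cells Ccr1 was above and Ccr2 below the rest. Ccr1 in the mixed library had 4.31 CPM in Xcr1-positive cells and 27.1 CPM in Cd209a-positive cells without Xcr1.

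Cxcr3 was lowest at day 11 in Timd4-positive cells, with 5.49 CPM against 19.6 CPM in the other cells (ratio 0.280, 0.175 to 0.428). It had 13.05 CPM in DC-gated, 14.5 CPM in Ly6c2-positive, 14.8 CPM in Gpnmb-positive cells and 22.7 CPM in cells of none of the gates; the first 3 overlap in their intervals. All steady-state macrophage populations had between 3.09 CPM and 3.94 CPM of Cxcr3, from 5 to 50 UMIs each. Steady-state macrophages therefore gave no order for this gene at this depth.

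In the day 11 and steady-state macrophage libraries the level of Ccr2 changed with the number of marker UMIs and not only their presence. An exception was the last Timd4 step of steady-state macrophages, where Ccr2 was flat. Among steady-state macrophages Ccr2 had 249, 166, 123 and 122 CPM in cells with 0, 1, 2 to 4 and 5 or more Timd4 UMIs. At day 11 it had 267, 167 and 130 CPM in cells with 0, 1 and 2 to 4 Timd4 UMIs. With Gpnmb at day 11 the course of Ccr2 and Cxcr4 was opposite. In cells with 0, 1, 2 to 4 and 5 or more Gpnmb UMIs, Ccr2 had 320, 221, 111 and 62.7 CPM, while Cxcr4 had 54.8, 70.7, 112 and 130 CPM. Ccr1 had 65.6, 62.4, 35.3 and 23.7 CPM over the same steps. Over these Gpnmb steps the intervals of neighbours do not overlap for Ccr2, and those of the last steps overlap for Cxcr4. Ccr2 also went with Ly6c2, with 238, 400, 602 and 665 CPM at day 11 and 166, 199, 266 and 322 CPM among steady-state macrophages in cells with 0, 1, 2 to 4 and 5 or more Ly6c2 UMIs. Day 11 cells with 0 Gpnmb UMIs had a median of 7587 UMIs and those with 5 or more a median of 10682.5 UMIs. The part of depth in the Timd4, Gpnmb and Ly6c2 steps was not tested.

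**Figure D3:**
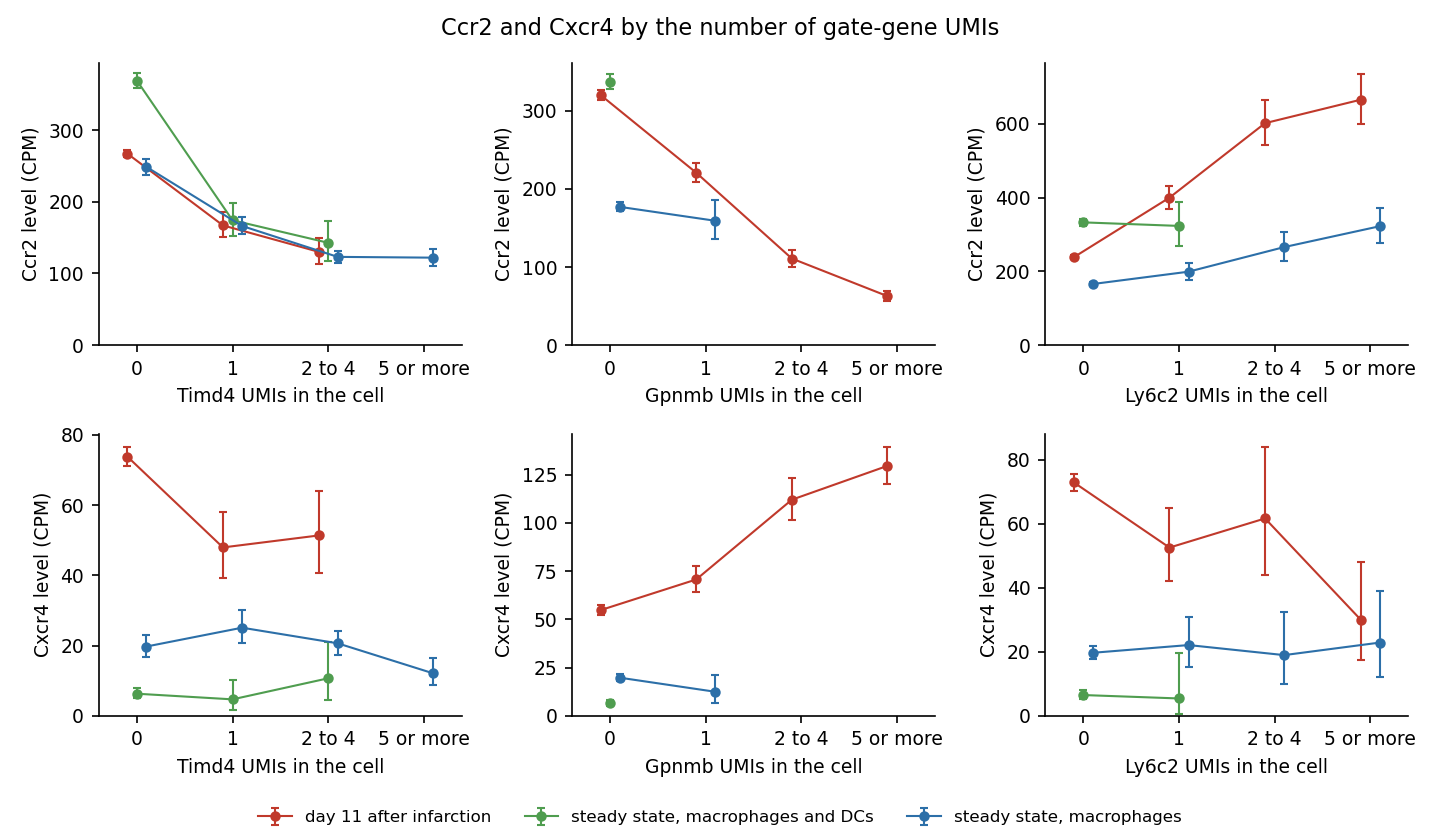
Level in CPM of Ccr2 (upper row) and Cxcr4 (lower row) in cells grouped by their number of Timd4, Gpnmb or Ly6c2 UMIs, for the day 11, mixed, and steady-state macrophage libraries; bars are 95% Poisson intervals and groups under 20 cells are left out. At day 11 Ccr2 declines from 320 to 62.7 CPM and Cxcr4 climbs from 54.8 to 130 CPM over the Gpnmb steps.

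Within each gate the day 11 cells were then set against steady-state macrophages of the same gate. Cxcr4 was more than 2-fold higher at day 11 in each one. It had 49.1 against 20.0 CPM in the Timd4 gate (ratio 2.45, 2.04 to 2.94), 102 against 22.2 CPM in the Gpnmb gate (4.62, 3.27 to 6.73), 50.2 against 21.5 CPM in the Ly6c2 gate (2.33, 1.71 to 3.21) and 46.3 against 20.5 CPM in the DC gate (2.26, 1.66 to 3.14). In cells of none of the gates it had 59.8 CPM at day 11 against 19.5 CPM (3.07, 2.54 to 3.73). Genes at least 2-fold higher at day 11 made up 1.24% in the Timd4 gate, 2.87% in the Gpnmb gate, 3.27% in the Ly6c2 gate, 3.05% in the DC gate and 1.69% in none of the gates. The whole-library ratio of 3.58 thus lies within the range of the gates. In cells of exactly 1 gate, a choice made after these values were seen, the Cxcr4 ratio was 2.15 in the Timd4 gate (1.67 to 2.75) and 5.44 in the Gpnmb gate (2.49 to 14.8). It was short of 2-fold at 1.998 in the Ly6c2 gate (1.08 to 4.05) and 1.59 in the DC gate (0.89 to 3.04).

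Cxcr3 was 4.39 times as high at day 11 in the Gpnmb gate (1.85 to 13.7), 3.67 times in the Ly6c2 gate (1.86 to 7.93), 4.22 times in the DC gate (1.98 to 10.3) and 6.12 times in none of the gates (4.03 to 9.75). In the Timd4 gate it had 5.49 CPM at day 11 against 3.34 CPM, a ratio of 1.64 whose interval, 0.947 to 2.76, includes 1. The counts behind these ratios are 5 to 50 UMIs in each steady-state gate, and in cells of exactly 1 gate the Ly6c2 ratio was 1.58, short of 2-fold.

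The ratio of Ccr2 differed from gate to gate. It was near equal in the Timd4 gate (147 CPM at day 11 against 136 CPM, ratio 1.08, 0.983 to 1.18) and in the Gpnmb gate (136 against 143 CPM, ratio 0.948, 0.823 to 1.10); in cells of exactly 1 gate the Gpnmb ratio was 0.586. In the Ly6c2 gate it was 2.07 times as high at day 11 (499 against 241 CPM, 1.89 to 2.28) and in the DC gate 1.80 times (405 against 224 CPM, 1.64 to 1.99). Of the Ly6c2-gated cells 5.98% at day 11 and 60.6% in steady-state macrophages were also Timd4-positive. Of the DC-gated cells 8.20% and 62.8% were, in the same order. The part of this overlap in the ratios was not tested, nor was the difference between the ratios. Timd4-positive cells made up 7.43% of day 11 cells and 55.1% of steady-state macrophages, and fewer cells of a kind and less RNA per cell cannot be told apart in the whole-library level.

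Ccr1 had a whole-library ratio near 1, and the gates lay on both sides of it. At day 11 it had 87.0 CPM against 64.9 CPM in the Timd4 gate (1.34, 1.18 to 1.52) and 91.9 CPM against 52.3 CPM in the Ly6c2 gate (1.76, 1.43 to 2.17). In the Gpnmb gate it had 41.5 CPM at day 11 against 53.8 CPM, a ratio of 0.772 (0.611 to 0.988), and in cells of exactly 1 gate this ratio was 1.54, on the other side of 1 with an interval that includes 1 (0.741 to 3.85). No gate was past 2-fold, and in cells of exactly 1 gate the Ly6c2 ratio was 2.22 (1.44 to 3.57).

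**Figure D4:**
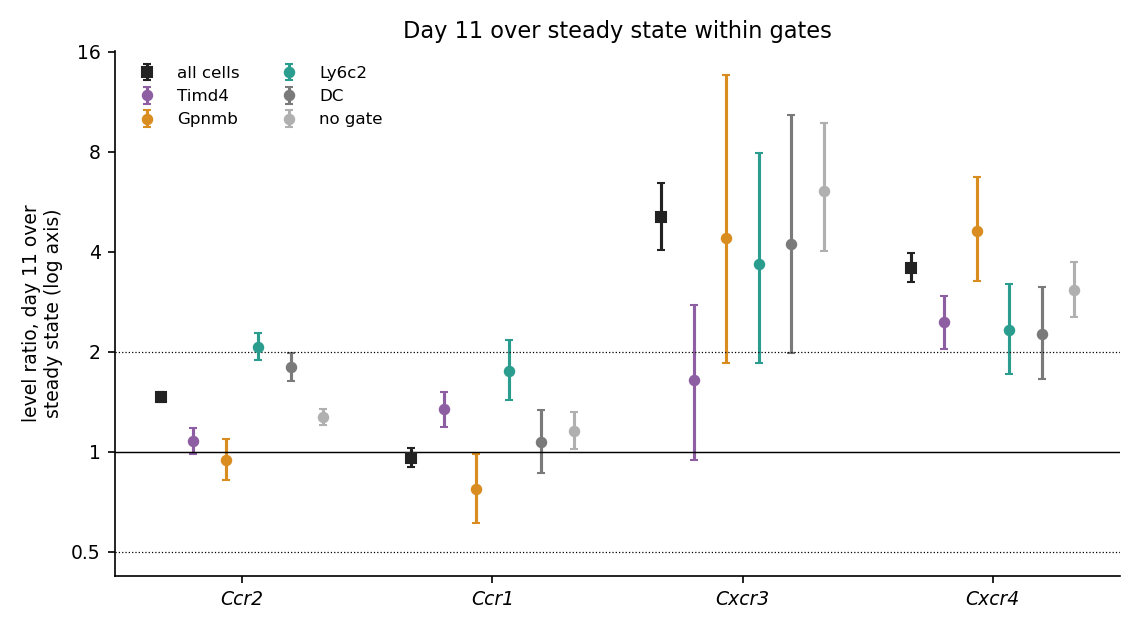
Ratio of day 11 over steady-state macrophages (log axis) for Ccr2, Ccr1, Cxcr3 and Cxcr4 in all cells (squares), in each gate and in cells of none of the gates; bars are exact 95% intervals for counting error, the solid line is 1 and the dotted lines are 2-fold. Cxcr4 lies above 2 in every gate (2.26 to 4.62), and Ccr1 lies on both sides of 1 (0.772 to 1.76).

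The DCs of the mixed library split by receptor. Xcr1-positive cells, 340 in number, had 83.9 CPM of Cxcr3 against 7.78 CPM in the other cells, a ratio of 10.8 (8.41 to 14.0), and 59.4% of them held a Cxcr3 UMI at full depth. Genes at least 2-fold higher in Xcr1-positive cells made up 5.55% of those tested. They had 243 CPM of Ccr2 against 376 CPM, 4.31 CPM of Ccr1 against 32.4 CPM and 1.20 CPM of Cxcr4 against 8.79 CPM, with Ccr1 and Cxcr4 past 2-fold where 14.6% of genes were at least 2-fold lower. The 584 Cd209a-positive cells without Xcr1 had 403 CPM of Ccr2 and 5.82 CPM of Cxcr3 against 300.3 CPM of Ccr2 and 43.8 CPM of Cxcr3 in the other cells, and Cxcr3 was past 2-fold where 4.28% of genes were at least 2-fold lower. The Cxcr3 of this library thus lay mainly in Xcr1-positive cells, which gave 350 of its 427 UMIs.

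The Xcr1-positive cells carried the other cDC1 genes too. Every one of the 7 other members of the cDC1 list was at least 2-fold higher in Xcr1-positive cells, where 5.53% of genes were, among them Clec9a, a receptor for dead cells, at 138 against 10.4 CPM and Tlr3, a sensor of double-stranded RNA, at 119 against 11.6 CPM. By the naming rule the 6 genes with the largest folds were Cyp8b1, Fcrla, Itgae, Gcsam, Clec9a and Sept3, with ratios of 12.2 to 17.1. The macrophage gene C1qa had 192 CPM in them against 2566 CPM in Xcr1-negative cells, and the chemokine receptor Cx3cr1 had 6.95 CPM against 112 CPM.

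Ccr7 sat in few cells. In the mixed library 21 cells held all 135 UMIs, and 1 of them also held Xcr1. The DC gate of that library had 5.35 CPM of Ccr7, below the level of the whole library. With at least 2 UMIs of the gate gene it had 0.430 CPM, so this gate does not stand for the Ccr7-positive cells. The markers of mature DCs were together with it: all 9 other members of that list were at least 2-fold higher in Ccr7-positive cells, in a comparison where 25.9% of genes were. Fscn1, an actin-bundling protein of mature DCs, had 1339 CPM against 1.87 CPM, Ccl22 had 1566 CPM against 8.12 CPM, Relb had 448 CPM against 25.9 CPM, and Ccl5, a ligand of Ccr1, had 11374 CPM against 19.8 CPM. The other genes with the largest folds were Stap2, Il12b, Apol7c and Akap2, and Il12b, a subunit of interleukin 12, had 177 CPM against 0.287 CPM. Fscn1 and Ccl5 had UMIs in 71.4% and 76.2% of the Ccr7-positive cells. Stap2 was found in 28.6% of them, Il12b in 23.8%, Apol7c in 38.1% and Akap2 in 23.8%, so the levels of these 4 rest on a minority of the cells. Of 8 interferon response genes 7 were at least 2-fold higher, though the intervals of Ifit1 (3 UMIs) and Oasl2 (7 UMIs) include 1. Isg15, an interferon-induced ubiquitin-like protein, had 208 CPM against 45.0 CPM, and Cxcl9, a ligand of Cxcr3, had 272 CPM against 8.91 CPM. Of 7 macrophage genes 6 and of 8 cDC1 genes 6 were at least 2-fold lower, where 14.7% of genes were. C1qa had 227 CPM against 1881 CPM, and Clec9a had 0 UMIs in these cells. Ccr2 had UMIs in 7 of the 21 cells.

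In the libraries sorted for macrophages, Ccr7 UMIs were found in 10 day 11 cells and 16 steady-state cells. Of the 20 day 11 UMIs 3 lay in the 8 lymphoid-gated cells, and of the 23 steady-state UMIs 4 lay in the 7 lymphoid-gated cells. T cells also carry Ccr7, and the part of such cells in its level was not tested.

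Co-detection was counted in thinned cells, as cells with both receptors over the number that the product of the 2 shares gives. All 15 pairs were counted in each library. A value of 1 means that the receptors met as often as their shares give, and the counts are a description of cells of 1 library. Most cells had at most 1 of the 6 receptors at this depth. At day 11 41.3% of cells had 0 and 45.6% had 1, in the mixed library 38.0% and 50.5%, and in the steady-state macrophage library 56.3% and 38.1%.

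Ccr2 and Cxcr4 met in 193 day 11 cells where the product gives 292 (0.662). Cxcr4 was detected in 12.1% of Ccr2-positive against 21.7% of Ccr2-negative cells at day 11, and at full depth in 32.4% against 43.3%. In the mixed library the pair met in 6 cells where 17.4 were due, and in steady-state macrophages in 29 where 26.6 were due (1.09). At full depth the pair gave 0.857 at day 11, 0.753 with DCs and 1.26 in steady-state macrophages. Without DC-gated, lymphoid-gated and stromal-gated cells the thinned value of steady-state macrophages was 0.969, on the other side of 1, and the interval of the 29 cells (1.12% to 2.38% of cells) holds the number due. Ccr2 and Ccr1 met in 236 day 11 cells where the product gives 201 (1.17). Ccr1 and Cxcr3 met in 15 day 11 cells where 29.8 were due (0.504), and Cxcr3 and Cxcr4 in 40 where 43.2 were due (0.926, and 1.06 at full depth).

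Among pairs with at least 5 cells due, Cxcr3 and Xcr1 in the mixed library had the highest ratio. They met in 40 thinned cells where 11.4 were due (3.52). At full depth 202 cells held both, which is 75.7% of the Cxcr3-positive and 59.4% of the Xcr1-positive cells. Ccr1 and Xcr1 met in 2 cells where 11.6 were due, and Ccr2 and Xcr1 in 73 where 76.2 were due (0.959). At full depth Ccr2 and Xcr1 lay on the other side of 1, with 287 cells where 218 were due (1.32).

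**Figure D5:**
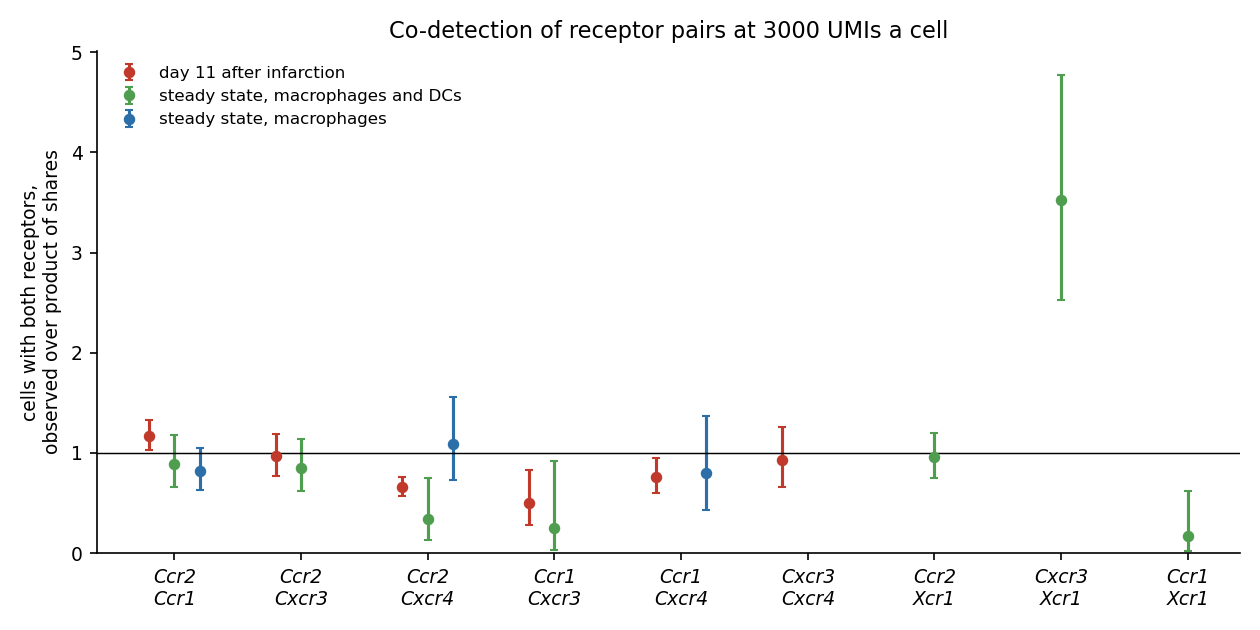
Cells with both receptors of a pair over the number given by the product of their shares, after thinning to 3000 UMIs a cell, in the day 11, mixed, and steady-state macrophage libraries; bars are exact 95% binomial intervals of the observed share, pairs with fewer than 5 cells due are left out, and the line is 1. Cxcr3 with Xcr1 lies at 3.52 and Ccr2 with Cxcr4 at 0.662 at day 11.

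Receptor-positive cells were compared with receptor-negative cells of the same library at full depth, to see what else they carried. Positive cells were deeper in all of these comparisons but that of Cxcr4 in the mixed library (median 6637 UMIs against 7199). Ccr2-positive cells had medians of 9068 UMIs against 7470 at day 11, 9199 against 4605 with DCs and 14187 against 9008 in steady-state macrophages. CPM corrects for depth in the level but not in the choice of cells.

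Ccr2-positive cells at day 11 carried monocyte and antigen presentation genes. All 7 MHC class II genes were at least 2-fold higher, where 0.969% of all genes were. H2-Ab1 had 11374 CPM against 4653 CPM and Ciita, the master regulator of the class, 41.2 CPM against 14.96 CPM. Of 6 tested classical monocyte genes 4 were higher (Ly6c2, Plac8, Chil3 and Hp), Plac8 at 213 CPM against 43.0 CPM. Among 8 genes of lipid-associated macrophages 4 were at least 2-fold lower (Gpnmb, Fabp5, Ctsd and Syngr1), where 0.699% of all genes were, with Gpnmb at 85.1 CPM against 279 CPM. Of 8 cDC2 genes 5 were higher (Cd209a, Itgax, Flt3, Dpp4 and Ifitm1), Cd209a at 83.1 CPM against 12.6 CPM. Steady-state Ccr2-positive macrophages had 4 of 6 monocyte genes higher (Ly6c2, Chil3, Hp and Fn1), where 0.547% of all genes were, and 0 of 7 MHC class II genes past 2-fold, H2-Ab1 at 10438 CPM against 6817 CPM. In the mixed library all 8 resident macrophage genes were lower in Ccr2-positive cells, where 10.1% of all genes were, and Lyve1 had 9.30 CPM against 206 CPM. There 7 of 8 cell cycle genes were at least 2-fold higher, where 2.29% of all genes were, with Mki67, a proliferation marker, at 26.7 CPM against 11.1 CPM.

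Ranked by the smallest of their folds over the 3 libraries, the leading genes of Ccr2-positive cells were Emb, Ms4a4c, Rnase6, Clec4b1, Tmsb10 and Plbd1. Emb, an adhesion molecule of the immunoglobulin family, had 154 against 71.0 CPM at day 11, 174 against 61.0 CPM with DCs and 89.6 against 37.8 CPM in steady-state macrophages. Its ratios were 2.17, 2.85 and 2.37 in that order.

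Cxcr4-positive cells at day 11 carried lipid-associated genes. Of 8 such genes 4 were at least 2-fold higher (Gpnmb, Fabp5, Ctsd and Syngr1), the same 4 that were lower in Ccr2-positive cells, where 0.192% of all genes were. Gpnmb had 283 CPM against 86.0 CPM, Fabp5, a fatty acid binding protein, 547 CPM against 225 CPM, and Ctsd, a lysosomal protease, 2999 CPM against 1475 CPM. Steady-state Cxcr4-positive macrophages had Gpnmb, Fabp5 and Syngr1 higher, where 1.13% of all genes were, with Gpnmb at 35.0 CPM against 10.2 CPM. In the steady-state macrophage library all 8 cell cycle genes were also at least 2-fold higher in Cxcr4-positive cells, with ratios of 2.03 to 2.30, and Mki67 had 64.7 CPM against 29.9 CPM. Positive cells there had a median of 14673 UMIs against 10015, and the part of depth in this was not tested. Among cells of the mixed library 6 of 8 were higher, where 7.08% of all genes were, with Top2a, a topoisomerase of dividing cells, at 147 CPM against 37.3 CPM. At day 11 0 of 8 were past 2-fold, and Mki67 had 20.8 CPM against 24.1 CPM. By the naming rule Ctsd, Hist1h2bc, Oxct1, Cd9, Cstb and Capg led, with ratios between 1.14 and 2.03. None of the 1688 genes that this rule admits was therefore past 2-fold in all 3 libraries.

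Ccr1-positive cells at day 11 carried resident macrophage genes, 5 of 8 at least 2-fold higher (Timd4, Lyve1, Folr2, Vsig4 and F13a1), where 0.641% of all genes were. Timd4 had 23.9 CPM against 10.3 CPM, Lyve1 had 90.9 CPM against 37.8 CPM, and Vsig4, a complement receptor, had 21.4 CPM against 9.44 CPM. Of 3 tested neutrophil genes S100a8 (17.0 against 5.72 CPM) and S100a9 (6.91 against 2.74 CPM) were also higher, while Csf3r had 26.6 CPM against 32.3 CPM, and the part of neutrophils in these values was not tested. Among steady-state macrophages 0 of 8 resident genes were past 2-fold, where 0.0656% of all genes were higher, and Timd4 had 130 CPM against 99.4 CPM. In the mixed library all 8 cDC1 genes were at least 2-fold lower in Ccr1-positive cells, where 2.51% of all genes were, with Clec9a at 9.50 CPM against 55.1 CPM, and 4 of 8 resident genes were at least 2-fold higher, where 2.05% were. Ccl2, Ltc4s, Ccl24, Clec4n, S100a4 and Ehd1 led by the naming rule. Ccl2, the ligand of Ccr2, had 195 against 95.8 CPM at day 11, 104 against 63.3 CPM with DCs and 246 against 151 CPM in steady-state macrophages.

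Cxcr3-positive cells were not of the same kind in each library. In the mixed library all 8 cDC1 genes were at least 2-fold higher, where 4.30% of all genes were, and Irf8, a transcription factor of cDC1s, had 1036 CPM against 264 CPM. At day 11 0 of 5 tested cDC1 genes were past 2-fold, where 0.203% of all genes were higher. There 4 of 8 resident genes (Timd4, Lyve1, Cd163 and F13a1) and 4 of 6 monocyte genes (Ly6c2, Plac8, Hp and Fn1) were at least 2-fold lower, where 0.553% of all genes were. F13a1 had 170 CPM against 352 CPM and Plac8 had 57.1 CPM against 150 CPM, while C1qa had 7021 CPM against 6443 CPM. None of the 7 macrophage genes was past 2-fold at day 11. Rnase6, Ppt2, Rogdi, Bin3, Zfos1 and Ncf4 led by the naming rule, with ratios of 1.11 to 2.20.

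Likeness over populations was measured as the Pearson correlation of log2(CPM + 5) over 14 populations of library and gate, which share cells and libraries, so it carries no p. Nearest to Cxcr4 were Znrf1 (r = 0.98), Epb41l2 (0.98), Ly9 (0.98) and Trem2 (0.97), and nearest to Ccr1 were Ifitm2 (0.95), Tmbim6 (0.94), Parp14 (0.93) and Emilin2 (0.93). Ccr2 was nearest to Twf2 (0.92), Psma1 (0.90), Fam49b (0.89) and Stk24 (0.87), and Cxcr3 to Sh3bp1 (0.92), Ppt1 (0.91), Hint3 (0.91) and P2ry14 (0.91). Dctpp1, Ppp1r11, Ppm1m and Wdfy4 came nearest to Xcr1 (0.98 each), and Cd207 (0.92), Apol7c (0.86), Fscn1 (0.86) and Ptges3 (0.85) to Ccr7. The DC gate is drawn in part on Xcr1, so the levels of Xcr1 over these populations are partly set by the rule. Xcr1 and Ccr7 were under 5 CPM in the whole day 11 and steady-state macrophage libraries, so their r values rest largely on the mixed library. The Ccr7 UMIs of that library came from 21 cells.

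Other genes of the pathway were compared between day 11 and steady-state macrophages, where 2.33% of all genes tested were at least 2-fold higher at day 11 and 3.34% at least 2-fold lower. Of the other chemokine receptors reported here, Ccrl2, an atypical receptor, was higher at 33.5 CPM against 11.4 CPM (ratio 2.95, 2.58 to 3.38). Cx3cr1, whose locus carries the Cre allele in both libraries, had 223 CPM at day 11 against 235 CPM. On the fixed list of ligands, which places Ccl8 under Ccr2 by choice and not by a result here, 12 genes were tested. Of these 2 were at least 2-fold higher, Ccl8 (261 against 112 CPM) and Ccl5 (61.6 against 30.6 CPM). The 1 lower gene was Cxcl12, the ligand of Cxcr4, at 3.53 CPM against 9.70 CPM. Ccl2 had 128 CPM at day 11 against 197 CPM, and Cxcl9 and Cxcl10, the ligands of Cxcr3, had 12.7 and 54.4 CPM against 14.8 and 64.2 CPM. Of 17 signalling genes Rgs1, which shortens signals of G proteins, was higher at 55.2 CPM against 13.8 CPM (ratio 4.01, 3.56 to 4.52), and the other 16 lay within 2-fold. The median log2 ratio was -0.27 for the ligands and -0.08 for the signalling genes, beside -0.09 over all genes tested.

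Cells with TdTomato RNA, 62 at day 11 and 225 in the steady-state macrophage library, were compared with cells of the same library without it; the labels do not give when the reporter was induced, and a cell without a TdTomato UMI is not shown to lack the reporter. At day 11 Ccr2 had 173 CPM in TdTomato-positive cells against 257 CPM in TdTomato-negative cells (ratio 0.671, 0.554 to 0.806), and Ccr1 had 84.8 CPM against 56.7 CPM (1.50, 1.13 to 1.94). Cxcr4 had 74.4 CPM against 71.4 CPM at day 11. In the steady-state macrophage library Ccr2 had 168 CPM in TdTomato-positive cells against 176 CPM (0.950, 0.872 to 1.03), and Ccr1 had 61.8 CPM against 59.0 CPM. None of these was past 2-fold, where 3.95% of genes were at least 2-fold higher and 3.6% at least 2-fold lower at day 11. In the steady-state macrophage library 0.0763% of genes were at least 2-fold higher and 0.588% at least 2-fold lower, so few genes of any kind passed there.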

How the data were processed

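The deposited values were raw counts, UMIs per gene and cell barcode from droplet 3′ chemistry, made by the authors with Cell Ranger and STAR on mm10, per the submitters' processing notes, with versions not given in the sources used here. Tables hold 27998 shared genes, and 3 reporter entries in the reporter libraries. Barcodes numbered 4697 with 45177529 UMIs at day 11, 1780 with 14388327 in the mixed library and 1806 with 23711707 in the steady-state macrophage library. Other entries (gene symbols and barcodes) were used as the authors deposited them.

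Cells were kept with at least 500 genes and at most 10% mitochondrial UMIs, and the barcodes with the highest Scrublet scores (scanpy 1.11.5) were removed, 0.8% per 1000 barcodes, which removed 176, 25 and 26 in the same order. Levels are summed UMIs per 1000000 with exact Poisson intervals, and ratios have exact conditional binomial intervals. Shares have Clopper-Pearson intervals after thinning to 3000 UMIs. All intervals are at 95%. Where 1 side had 0 UMIs, 3 counts per population stood in for calls. The ratio and its calls were tested on simulated data. No p was computed, since each group has 1 library. Promoters came from RefSeq (GRCm38.p6), and gene positions from GENCODE. Named genes were the members, the fixed lists, the 6 genes with the largest smallest fold in receptor-positive cells of libraries with at least 20 such cells (at least 50 CPM and 20% of positive cells), and the 4 most alike over populations (at least 20 CPM in 1). Lymphoid-gated cells had at least 2 lymphoid genes and stromal-gated cells at least 3 stromal genes, without Csf1r. Members and lists were chosen with earlier results of these data known. Alternatives used edgeR 4.0.16 for TMM factors on the raw counts.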

Additional observations from a re-analysis of the deposited data

Results flagged for a closer look

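Ccr1 differed in direction between gates when day 11 was set against steady-state macrophages. Its ratio was 1.34 in Timd4-gated cells and 1.76 in Ly6c2-gated cells, and 0.772 in Gpnmb-gated cells, with counting intervals wholly above 1 in the first pair and wholly below 1 in the last. The difference between the gates was not tested, since each group has 1 library. Of the Gpnmb-gated cells, 86 of 1341 were also Timd4-positive at day 11, against 53 of 80 among steady-state macrophages. In cells of exactly 1 gate the Gpnmb ratio was 1.54 (0.741 to 3.85).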

How the results depend on the processing

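The cause of each shift below was not tested. With TMM factors the ratio of day 11 over steady-state macrophages was 1.60 for Ccr2 and 1.05 for Ccr1, which crosses 1, and as a mean of per-cell levels it was 0.880 for Ccr1. Cxcr3, Cxcr4, Ccr7 and Xcr1 stayed within their main counting intervals under each alternative run for that comparison, though Ccr7, at 0.471, gave 0.267 as a mean of per-cell levels. The counts of genes at least 2-fold higher and lower, 213 and 306, became 89 and 144 with at least 20 CPM, and 812 and 2782 with no filter on low values; both changes alter which genes are tested. In cells of exactly 1 gate, an alternative added after seeing the data, the Ccr1 ratio in the Gpnmb gate was 1.54. Leaving out doublet removal moved 1 of 66 gated levels past its interval, a gate of at least 2 UMIs 27 of 60, and cells of exactly 1 gate 35 of 66. Against the mixed library, the Cxcr3 ratio of 0.601 became 0.917 as a mean of per-cell levels. Co-detection of Ccr1 with Cxcr3 in the mixed library, 0.255, became 1.03 without DC-gated, lymphoid-gated and stromal-gated cells. No thinning moved 15 of 18 shares. No paired analysis was possible because each group has 1 library. Low UMI counts limit what can be said of Xcr1 and Ccr7 outside the mixed library, and of Cxcr3 in steady-state macrophages.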
